A study of Saccharomyces cerevisiae with 8 samples.

Results

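The genes described here are 9 components of the Ras and protein kinase A (PKA) pathway of baker's yeast, Saccharomyces cerevisiae, and of the transcription factor pair it restrains. They were taken by name: RAS1 and RAS2, PDE1 and PDE2, TPK2, TPK3 and BCY1, and MSN2 and MSN4. Each was read by its brightest probe set assigned to that gene alone, and each had exactly 1 such probe set. The array gave values for 5656 genes, of which 5188 passed a filter on low intensity, and all 9 were among them.

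In yeast, the Ras proteins, small GTPases, switch on adenylate cyclase when sugar is plentiful, and the cyclic AMP it makes releases the catalytic subunits of PKA from their inhibitory subunit Bcy1. Active PKA favours growth and keeps Msn2 and Msn4 out of the nucleus. When PKA activity drops under stress or starvation, these zinc finger proteins enter the nucleus and switch on genes that carry stress response elements, among them genes for heat shock proteins, catalase and storage carbohydrates. Much of this regulation acts on proteins, so an mRNA level does not report the activity of the pathway.

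Commercial baker's yeast was held frozen at -20 °C for 0, 3, 7 or 14 days in a liquid fermentation medium without sucrose and maltose, and was thawed for 10 min at 30 °C. All samples, those of 0 days included, passed through the same suspension and thaw, and no strain name or genotype was used here. Each time had 2 samples, described by the submitters as independent, and each had its own Affymetrix array, so 8 arrays were read. P-values measure only the spread between these samples.

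Values are normalised intensities in linear units unless a log2 scale is named. They are relative to all mRNA on the array, so a change in RNA per cell and a change in the share of cells that still held RNA cannot be told apart. The number of arrays limits the precision: the median standard error of a difference between 14 and 0 days was 0.45 on the log2 scale. Replicates correlated across genes with r of 0.877 at 0 days, 0.912 at 3 days, 0.938 at 7 days and 0.927 at 14 days. The 0 day pair was therefore the least alike, and several of the genes below differed widely within it. The signal of ribosomal RNA probe sets relative to the array median ran from 15.7 to 22.7 at 7 and 14 days and from 6.76 to 11.3 at 0 and 3 days. Within each time, the array with the higher signal from spiked poly(A) controls also had the higher ACT1 3' to 5' ratio, a measure of how far RNA or cDNA reached toward the 5' end, and the ratio ranged from 1.41 to 2.86. Differences are therefore also given within array set 1, the array of lower spiked signal at each of the 4 times, and within array set 2, the array of higher spiked signal at each time. Across times the spiked signals of the sets overlapped, and the part of these measures in the results was not tested.

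MSN2 was the only member that passed a test of change with freezing time. Its calls, like those over all genes, were sensitive to the arrays used. It passed at 14 days against 3 days and for the slope, as did 4.59% and 8.4% of all genes. Its level rose 4.83-fold between 3 and 14 days, and its slope over the 4 times was above 0. No other member passed the test in any comparison, and the others are given by their values. This does not show that their levels stayed the same. TPK2, TPK3, BCY1, PDE1 and MSN4 also had group means at 7 and 14 days above those at 0 and 3 days. The 0 day arrays of TPK2, TPK3 and MSN4 disagreed widely. PDE2 was the member whose 0 day replicates were closest, and its level was lowest at 3 days.

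**Figure D1:**
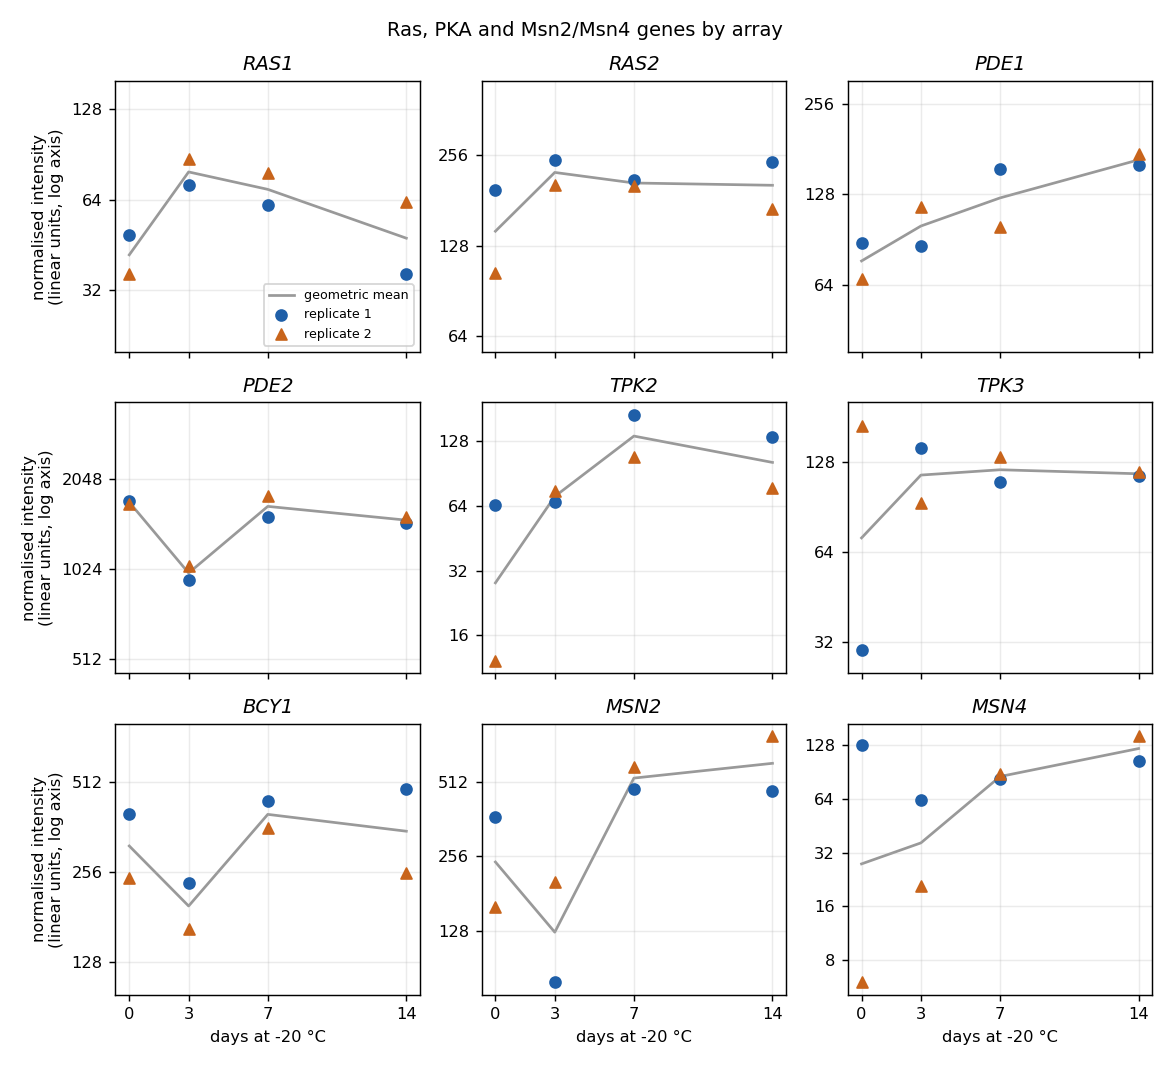
Normalised intensity of the 9 genes on a log axis (linear units) against days at -20 °C, 1 panel per gene. Points are single arrays, replicate 1 as circles and replicate 2 as triangles, and grey lines join the geometric means. MSN2 has all 4 arrays of 7 and 14 days above all 4 of 0 and 3 days, and TPK2, TPK3 and MSN4 have widely spaced points at 0 days.

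All comparisons between times came from 1 limma model fitted to the 5188 genes, with p-values adjusted over all of them and a gene called at an adjusted p under 0.05. The comparisons share arrays, so the values of a gene in several of them are not independent. At 3 days against 0 days, 0 of the 9 genes were called by limma, as were 0% of all genes, and 1 of 9 had an unadjusted p under 0.05, against 7.02% of all genes. After 7 days, compared with 0 days, 0 of 9 were called by limma, against 0.212% of all genes, and 1 of 9 had an unadjusted p under 0.05, against 19% of all genes. For 14 days against 0 days, limma called 0 of 9, against 1.73% of all genes, and 3 of 9 had an unadjusted p under 0.05, against 22.2%.

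The comparisons with 3 days as the earlier time gave the same picture with 1 exception. Between 7 and 3 days limma called 0 of 9 genes, against 1.2% of all genes, while 3 of 9 had an unadjusted p under 0.05, against 20.4%. Between 14 and 3 days limma called 1 of 9, MSN2, against 4.59% of all genes in either direction and 2.56% in the higher direction. That gene was also the only member with an unadjusted p under 0.05 there, where 24.6% of all genes had one. Between 14 and 7 days limma called 0 of 9 members and 0% of all genes, and 0 members had an unadjusted p under 0.05, against 0.925% of all genes. Differences of the members between 14 and 7 days ran from -0.54 to 0.52 on the log2 scale.

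Tests over all 4 times added 1 call. The linear slope over days was called for 1 of 9 members by limma, again MSN2, against 8.4% of all genes in either direction and 4.65% with a slope above 0. An unadjusted p under 0.05 for the slope was found for 3 of 9 members, against 28.7% of all genes. The limma F test for any difference among the 4 times called 0 of 9, against 2.58% of all genes, and 2 of 9 had an unadjusted p under 0.05, against 21.4%. At 14 days against 0 days, 8 of 9 members lay above 0, beside 2883 of 5188 genes. The median log2 difference of the 9 members was 0.71 there, beside 0.11 over all genes. Without 0 day replicate 2 this median was 0.05. The corresponding medians at 14 days against 3 days were 0.59 for the members and 0.02 for all genes.

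**Figure D2:**
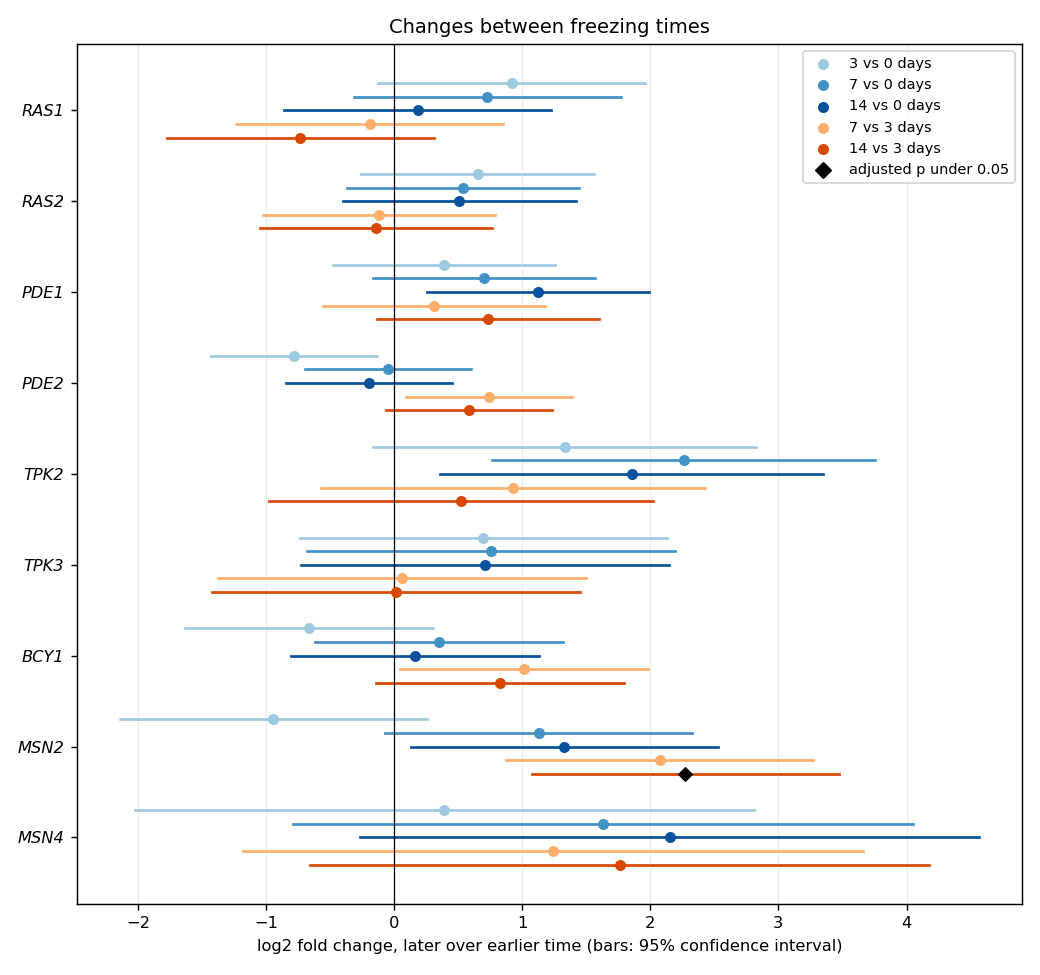
Log2 fold change of each gene, later over earlier time, in the comparisons named in the legend, with bars for the 95% confidence interval of the limma fit to 8 arrays. The black diamond marks an adjusted p under 0.05, which MSN2 alone reached, with 2.27 at 14 days against 3 days. The widest intervals belong to MSN4.

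RAS1 and RAS2 encode the Ras GTPases that activate adenylate cyclase. RAS1 had 48.7 and 36.1 units at 0 days, 71.5 and 87.6 at 3 days, 61.3 and 78.2 at 7 days and 36.1 and 62.9 at 14 days. Its 3 day arrays both lay above its 0 day arrays, while the 14 day arrays overlapped those of 0 days and lay below those of 3 days. RAS2 had 197 and 104 units at 0 days, 246 and 204 at 3 days, 212 and 201 at 7 days and 243 and 169.9 at 14 days. Its low point was 0 day replicate 2, and the 3 later times overlapped one another.

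Both RAS genes thus had the same order of group means, highest at 3 days, then 7, 14 and 0 days. At 3 days against 0 days the log2 difference was 0.92 ± 0.47 (SE) for RAS1 and 0.65 ± 0.41 for RAS2, with limma adjusted p of 0.699 and 0.739. For RAS1 the difference was alike within set 1, 0.85, and within set 2, 0.99. For RAS2 these were 0.05 and 1.25. The log2 differences at 14 days against 0 days were 0.18 ± 0.47 for RAS1 and 0.51 ± 0.41 for RAS2, with 95% confidence intervals of -0.86 to 1.23 and -0.40 to 1.42. These intervals do not show that the level stayed the same.

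PDE1 and PDE2 encode the low-affinity and high-affinity cyclic AMP phosphodiesterases, which break down the second messenger. PDE1 had 88.2 and 67.0 units at 0 days, 86.5 and 117 at 3 days, 156 and 99.8 at 7 days and 160.0 and 174 at 14 days. Its group means stood in the order of the freezing times, and both 14 day arrays lay above all 6 other arrays. The difference at 14 days against 0 days was 1.12 ± 0.39 (SE) on the log2 scale, with a 95% confidence interval of 0.25 to 1.99 and a limma adjusted p of 0.135. It was 0.98 within set 1 and 1.26 within set 2. The slope was 0.077 log2 units per day with a limma adjusted p of 0.0873, so PDE1 did not pass either test.

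PDE2 had 1733 and 1691 units at 0 days, 942 and 1049 at 3 days, 1527 and 1798 at 7 days and 1456 and 1527 at 14 days. Only the 3 day arrays stood apart, below the other 6. The difference at 3 days against 0 days was -0.78 ± 0.29 (SE) on the log2 scale, with an unadjusted limma p of 0.0219 and an adjusted p of 0.651, and no gene of the whole array was called in that comparison. The 7 day arrays exceeded the 3 day arrays by 0.74 ± 0.29, with a limma adjusted p of 0.192. Both differences were close in the 2 array sets. The 3 day difference was -0.72 within set 1 and -0.85 within set 2, and the difference at 7 days against 3 days was 0.78 and 0.70. The slope of PDE2 over the whole 14 days was 0.0065 log2 units per day.

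TPK2 and TPK3 encode catalytic subunits of PKA. TPK2 had 64.6 and 12.2 units at 0 days, 66.6 and 74.7 at 3 days, 169 and 107 at 7 days and 133 and 77.2 at 14 days. All 4 arrays of 7 and 14 days lay above all 4 of 0 and 3 days, a pattern that 13.2% of all genes showed in this direction. The margin was narrow, since 14 day replicate 2 exceeded the higher 3 day array by little, and 0 day replicate 2 stood far below the rest. The differences against 0 days were 1.33 at 3 days, 2.26 at 7 days and 1.85 at 14 days on the log2 scale, with limma adjusted p of 0.699, 0.139 and 0.147. Without 0 day replicate 2 the last of these became 0.65, and without 0 day replicate 1 it became 3.09 with a limma adjusted p of 0.0186. Within set 1 the difference at 14 days against 0 days was 0.26, and within set 2 it was 3.45.

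TPK3 had 30.2 and 168 units at 0 days, 143 and 93.4 at 3 days, 109 and 132 at 7 days and 115 and 118 at 14 days. The 0 day arrays held both the lowest and the highest of the 8 values, and every later time lay between them. Here replicate 1 was the low array of the 0 day pair, whereas for TPK2 it was replicate 2. The differences against 0 days were 0.70, 0.75 and 0.71 at 3, 7 and 14 days on the log2 scale, with limma adjusted p between 0.549 and 0.817. Without 0 day replicate 1 they were -0.56, -0.50 and -0.54, so no direction can be given for TPK3.

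BCY1 encodes the regulatory subunit that holds the catalytic subunits inactive until cyclic AMP binds. It had 398 and 245 units at 0 days, 235 and 165 at 3 days, 441 and 359 at 7 days and 482 and 254 at 14 days. The 3 day arrays lay below all 6 others, and the 7 and 14 day arrays overlapped those of 0 days. Set against 3 days, the 7 day difference was 1.01 ± 0.44 (SE) on the log2 scale, with an unadjusted limma p of 0.0416 and an adjusted p of 0.227. It was 1.12 within set 1 and 0.91 within set 2. The difference at 14 days against 0 days was 0.16 ± 0.44, and its sign differed between the sets, with -0.65 in set 1 and 0.97 in set 2.

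MSN2 and MSN4 encode paralogous activators of the general stress response. MSN2 had 371 and 159 units at 0 days, 79.1 and 202 at 3 days, 480 and 588 at 7 days and 473 and 786 at 14 days. All 4 late arrays lay above all 4 early ones, and the nearest early value was that of 0 day replicate 1. In log2 units the means were 7.93 ± 0.86, 6.98 ± 0.96, 9.05 ± 0.21 and 9.25 ± 0.52 (SD, n = 2 each) at 0, 3, 7 and 14 days. The deposited intensities, before normalisation, showed the same separation, with 228 and 119.6 at 0 days, 62.4 and 181 at 3 days, 809 and 709.6 at 7 days and 432 and 886 at 14 days.

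Between 3 and 14 days MSN2 rose by 2.27 ± 0.54 (SE) on the log2 scale, with a 95% confidence interval of 1.07 to 3.47 and a limma adjusted p of 0.0424. It ranked 192 of 5188 genes by p in this comparison. The difference was 1.96 within set 1 and 2.58 within set 2. For 7 days against 3 days it was 2.07 ± 0.54, with a limma adjusted p of 0.0817, and 14 and 7 days differed by 0.20 ± 0.54. Its slope was 0.13 ± 0.037 log2 units per day, with a limma adjusted p of 0.0498, close to the threshold. Against 0 days MSN2 did not pass: the difference was 1.33 at 14 days, with an interval of 0.13 to 2.53 and a limma adjusted p of 0.188, and -0.94 at 3 days, with a limma adjusted p of 0.716.

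The MSN2 calls were sensitive to the arrays used. Leaving out either array of 3, 7 or 14 days ended the call at 14 days against 3 days, while the value ran from 1.60 to 2.96. Each of these fits left a time with 1 array and called fewer genes over the whole array too. The loss was therefore not particular to MSN2. Testing without the low-intensity filter gave an adjusted p of 0.0596, and limma without an intensity trend gave 0.101. With the array set as a block the adjusted p was 0.0113. The slope call was lost in 11 of 18 alternatives, with values of 0.0996 to 0.176 log2 units per day over the 18, all above 0.

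MSN4 had 128 and 5.98 units at 0 days, 63.4 and 20.8 at 3 days, 83.1 and 88.2 at 7 days and 105 and 144 at 14 days. The late arrays were close to one another and lay above both 3 day arrays, but 0 day replicate 1 exceeded 3 of the 4 late arrays. Its log2 SD was 0.33 within the 14 day pair and 3.13 within the 0 day pair, where it exceeded that of 99.7% of all genes. The difference at 14 days against 0 days was 2.15 ± 1.10 (SE) on the log2 scale, with a 95% confidence interval of -0.27 to 4.57 and a limma adjusted p of 0.274. Without 0 day replicate 2 it was -0.06, and without 0 day replicate 1 it was 4.38 with a limma adjusted p of 0.0171. Between 14 and 3 days it was 1.76 ± 1.10, with a limma adjusted p of 0.354. The slope of 0.16 log2 units per day had a limma adjusted p of 0.181.

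The spread at 0 days therefore set what could be said of 3 genes. The log2 SD of the 0 day pair was 1.70 for TPK2, 1.75 for TPK3 and 3.13 for MSN4, beside a median of 0.40 over all genes. For PDE2 it was 0.025. At 3, 7 and 14 days the median SD of the members was 0.31, 0.21 and 0.37, beside 0.31, 0.27 and 0.30 over all genes.

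Counted by separation alone, 5 of 9 members had both 7 day arrays above both 0 day arrays (TPK2, RAS1, RAS2, PDE1 and MSN2), against 29.8% of all genes, and 0 had them below, against 20.5%. Between 14 and 3 days, 6 of 9 lay wholly above (TPK2, BCY1, PDE1, PDE2, MSN2 and MSN4), against 28.6% of all genes, and RAS1 lay wholly below, against 28.5%. Between 14 and 0 days, 3 of 9 lay above, against 28% of all genes, and PDE2 alone lay below, against 22.9%. Between 7 and 3 days, 5 of 9 lay above, against 30.3%, and 0 lay below, against 24.8%. Between 3 and 0 days, 3 of 9 lay above, against 20.9%, and 2 lay below, against 14.2%. Between 14 and 7 days, PDE1 and MSN4 lay above, against 10.2% of all genes, and 0 lay below, against 16.1%. Such separations are frequent with 2 arrays a time, and the counts among 9 genes are given as a description.

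When the 4 times were ordered by group mean, no neighbouring pair of times differed in the limma test for any member. The order was 7, 14, 3 and 0 days for TPK2 and TPK3, 7, 14, 0 and 3 days for BCY1, and 3, 7, 14 and 0 days for RAS1 and RAS2. It was 14, 7, 3 and 0 days for PDE1 and MSN4, 0, 7, 14 and 3 days for PDE2, and 14, 7, 0 and 3 days for MSN2. The smallest limma adjusted p of a neighbouring pair was 0.246, for PDE2 at 14 days against 3 days.

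Whether the members of a pair changed differently with freezing time was tested directly, on the difference of their log2 values within each array. An exact two-sided permutation test over the 8 arrays, with 2520 arrangements, was run for 4 pairs. The slope of TPK2 minus that of TPK3 was 0.080 log2 units per day (exact permutation p = 0.504, adjusted over the 4 pairs 0.671). For RAS2 minus RAS1 it was 0.029 (exact permutation p = 0.432, adjusted 0.671), and for MSN4 minus MSN2 it was 0.028 (exact permutation p = 0.763, adjusted 0.763). The smallest p was that of PDE2 minus PDE1, whose slope difference was -0.071 per day (exact permutation p = 0.0909, adjusted 0.363). No pair passed, and with 2 arrays a time this does not show that the paired genes changed alike. MSN2 passed the slope test and MSN4 did not, but the difference between their slopes did not pass.

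The genes around these components were taken as 4 lists of known pathway genes, which were drawn up with earlier results of these data known. Upstream of PKA, 10 of 12 listed genes for the glucose receptor, Ras regulators and adenylate cyclase were tested, since GPB2 and SDC25 lay below the intensity filter. Limma called 1 of the 10 for its slope, against 8.4% of all genes, and 0 in the other comparisons, against 0% to 4.59% of all genes. RGS2, which speeds GTP hydrolysis by the Gα protein Gpa2 of the glucose-sensing branch, had 331 and 179.5 units at 0 days, 140.1 and 278 at 3 days, 500.3 and 807 at 7 days and 556 and 861 at 14 days. Its late arrays all exceeded its early ones, and it rose by 0.13 log2 units per day, with a limma adjusted p of 0.0389. That call was lost in 8 of 18 alternatives, with limma adjusted p up to 0.218. CYR1, adenylate cyclase itself, had the next smallest F test p, with a limma adjusted p of 0.129. Its brightest probe set gave a log2 difference of 2.30 at 3 days against 0 days, but its 9 probe sets ran from -1.54 to 3.95, so no direction is given.

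Of 9 listed genes that act downstream of PKA, all were tested, and limma called 2 for the slope, against 8.4% of all genes. It called 1 at 14 days against 3 days, against 4.59%, and 1 in the F test, against 2.58%. SOK2, a transcription factor that acts downstream of PKA, had 202 and 233 units at 0 days, 181 and 203 at 3 days, 461 and 748 at 7 days and 529 and 806 at 14 days. The late arrays were all above the early ones by a wide margin. Between 3 and 14 days SOK2 rose by 1.77 ± 0.40 log2 units (SE), with a limma adjusted p of 0.0361, and its F test had a limma adjusted p of 0.0489. These calls were lost in 7 of 19 and 9 of 18 alternatives, while its slope of 0.13 log2 units per day lost its call in 2 of 18. For the first, these included the fits without either array of 3, 7 or 14 days, which called fewer genes over the whole array too. IGO1 encodes an endosulfine that the PKA-restrained kinase Rim15 phosphorylates. It had 655 and 869.7 units at 0 days, 695 and 898 at 3 days, 1180.3 and 1789 at 7 days and 1571 and 2100.5 at 14 days. It rose by 0.10 log2 units per day, with a limma adjusted p of 0.0369, a call lost in 8 of 18 alternatives. RIM15 itself was not called in any comparison.

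Of 12 listed genes for partners of Msn2 and Msn4 and for other transcription factors, 11 were tested (PSR1 lay below the filter). Limma called 0 of the 11 in every comparison, against 0% to 8.4% of all genes. For the slope, 1 of the 11 had an unadjusted limma p under 0.05, against 28.7% of all genes. PSR2, a phosphatase that acts with Whi2, had a log2 difference of 1.30 ± 0.42 (SE) at 14 days against 3 days, with a limma adjusted p of 0.102. GLC7, the catalytic subunit of protein phosphatase 1, had -1.04 ± 0.39 at 7 days against 3 days, with a limma adjusted p of 0.175. A second GLC7 probe set differed less between 14 and 3 days, by -0.38 where the brighter one gave -0.84.

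**Figure D3:**
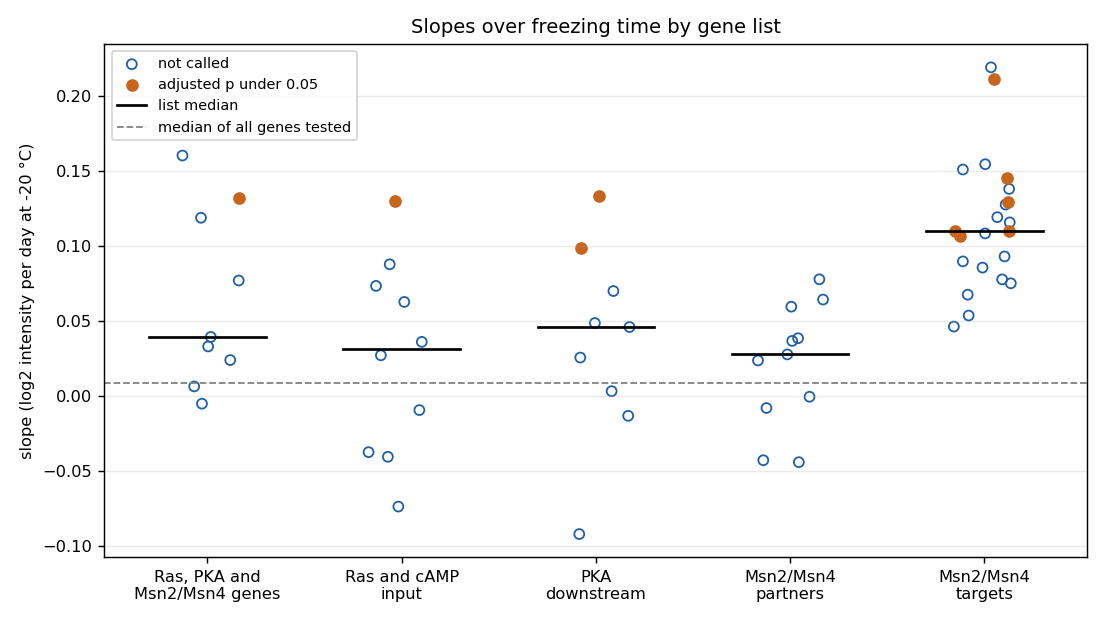
Slope over days at -20 °C, in log2 intensity per day, for the 9 genes and the 4 pathway lists, 1 point per gene tested. Filled points have a limma adjusted p under 0.05, black bars are list medians and the dashed line is the median of all 5188 genes, 0.0088. In this fit to all 8 arrays the 22 tested Msn2/Msn4 target genes have slopes above 0, with a median of 0.11.

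The known targets of Msn2 and Msn4 with stress response elements were read as a list of 23 genes, of which 22 were tested (RTN2 lay below the filter). In the fit to all 8 arrays 22 of 22 had slopes above 0, beside 2868 of 5188 genes. The 22 slopes ran from 0.046 to 0.22 log2 units per day. Limma called 6 of them, beside 4.65% of all genes called with a slope above 0. The list's median slope was 0.072 within set 1, where 19 of 22 lay above 0 and those of GLK1, TPS2 and TSL1 below it, and 0.18 within set 2, where 22 of 22 lay above 0. It was 0.16 without 0 day replicate 1 and 0.072 without 0 day replicate 2. The 6 called were HSP12 and HSP26, small heat shock proteins, CTT1, the cytosolic catalase, GPH1, glycogen phosphorylase, TFS1, an inhibitor of carboxypeptidase Y, and TKL2, a transketolase. Their limma adjusted p for the slope ran from 0.00896 for HSP12 to 0.0498 for GPH1. The slope call was lost in 4 of 18 alternatives for HSP12, 7 for HSP26, 8 for TKL2, 10 for TFS1 and 11 for GPH1, and in 12 of 17 for CTT1. Leaving out either 14 day array ended the slope calls of all 6. These fits left 14 days with 1 array and called far fewer genes over the whole array too, so the loss was not particular to the targets. TKL2 was read by 3 probe sets with slopes of 0.10 to 0.12. CTT1 was at the intensity floor on 0 day replicate 1. GAD1, not called but with the highest slope of the 22, was at it on 0 day replicate 2. The slopes of both genes depend on that floor. Between 14 and 3 days limma called 3 of the 22, all higher, beside 2.56% of all genes called in that direction. They were GSY2, which encodes glycogen synthase, HSP12 and TFS1, with log2 differences of 2.90, 1.39 and 1.80. These calls were lost in 8, 6 and 8 of 19 alternatives.

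HSP12 had 3855 and 3133 units at 0 days, 3952 and 2621 at 3 days, 8056 and 8369 at 7 days and 8872 and 7999 at 14 days. Its late and early arrays formed separate groups. At 14 days against 0 days it was the only 1 of the 22 called, beside 1.73% of all genes. Its log2 difference there was 1.28, with a limma adjusted p of 0.0381. That call was lost in 9 of 19 alternatives, with limma adjusted p up to 0.195. HSP12 was also the only 1 of the 22 called at 7 days against 3 days, beside 1.2% of all genes, and in the F test, beside 2.58%. Its limma adjusted p was 0.0452 and 0.0252 there, and these calls were lost in 9 of 19 and 5 of 18 alternatives. At 14 days against 3 days, 22 of 22 targets lay above 0, beside 2642 of 5188 genes. The median log2 difference of the 22 was 1.78 there, beside 0.02 over all genes. It was 1.62 within set 1 and 1.68 within set 2. Against 0 days, 22 of 22 again lay above 0 at 14 days, beside 2883 of 5188 genes. The 14 day median was 1.20, beside 0.11 over all genes. That value depended on the 0 day arrays: without 0 day replicate 2 it was 0.38 with 16 of 22 above 0, and without 0 day replicate 1 it was 1.95. It was 0.42 within set 1 and 2.26 within set 2. At 3 days against 0 days the median was -0.53. Limma called 0 of the 22 there, as it did 0% of all genes. An unadjusted limma p under 0.05 was found for 4 of the 22, against 7.02% of all genes. That median had no settled sign: it was 0.18 without 0 day replicate 1 and -0.98 without 0 day replicate 2, and -1.47 within set 1 and 0.59 within set 2.

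**Figure D4:**
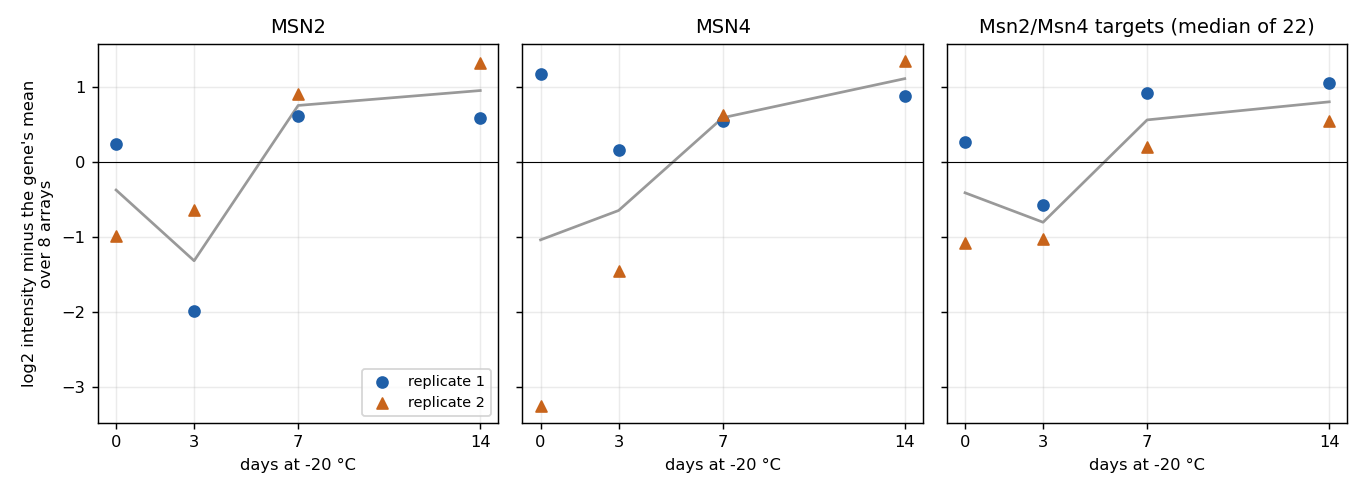
Log2 intensity minus each gene's own mean over the 8 arrays, for MSN2, MSN4 and the median of 22 target genes, against days at -20 °C. Points are single arrays (circles replicate 1, triangles replicate 2). The target median is between 0.20 and 1.05 on the 4 late arrays and reaches 0.26 on 0 day replicate 1, and 0 day replicate 2 is below 0 in all 3 panels.

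Set against its own mean over the 8 arrays, the median target gene stood at 0.26 and -1.09 log2 units at 0 days, -0.58 and -1.04 at 3 days, 0.92 and 0.20 at 7 days and 1.05 and 0.54 at 14 days. MSN2 stood at 0.23 and -0.99 at 0 days, -2.0 and -0.65 at 3 days, 0.60 and 0.90 at 7 days and 0.58 and 1.32 at 14 days. Both were lower on 0 day replicate 2 than on 0 day replicate 1, and so was MSN4, with -3.25 against 1.17. The values come from the same 8 arrays and share their normalisation.

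Genes whose pattern over the 8 arrays was most like that of a member were sought among 2344 genes with group means that spanned at least 1 log2 unit, for the 3 members with the widest span. For MSN2 these were VID24, a subunit of the ubiquitin ligase that degrades gluconeogenic enzymes, with a Pearson r of 0.988, and MSD1, the mitochondrial aspartyl-tRNA synthetase, with 0.983. In all, 76 genes had r above 0.9 with MSN2. VID24 stood at 10.68 and 10.01 log2 units at 0 days, 9.26 and 10.07 at 3 days, 11.30 and 11.54 at 7 days and 11.03 and 11.75 at 14 days. For TPK2 the most alike were ICS2, of unknown function, with 0.974, and HBT1 with 0.964. For MSN4 they were ATG40, a receptor for autophagy of the endoplasmic reticulum, with 0.964, and YET3, an endoplasmic reticulum protein, with 0.949. ICS2 and HBT1 were at the intensity floor, 1.33 log2 units, on 0 day replicate 2, and ATG40 was just above it there, at 1.34. TPK2 and MSN4 were also lowest on that array. Pearson r is given here as a measure of likeness over 8 arrays, with no test.

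Among themselves the members were not uniformly alike. Over the 36 pairs of members, Pearson r across the 8 arrays ran from -0.47 for BCY1 and RAS1 to 0.86 for TPK2 and RAS2, with a median of 0.24 and 24 pairs above 0. MSN2 and MSN4 had 0.59, and TPK2 and MSN4 had 0.79. These are descriptions over arrays that share their labelling and normalisation.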

How the data were processed

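The deposited values were probe set intensities on a linear scale, made by the authors from biotin-labelled cRNA on Affymetrix arrays; per the labels' protocols, RNA came from hot phenol extraction and poly(A) enrichment. The sources used here do not give the summarisation software or any scaling, and array medians differed 2.13-fold. Of 9335 probe sets, 60 were controls and were removed, and 6504 carried exactly 1 gene. Arrays were quantile normalised, floored at the pooled 5th percentile (2.52 units) and put on the log2 scale. Probe sets with a mean below the 25th percentile (4.16 log2 units) were left out, and each gene was read by its brightest probe set.

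Limma 3.58.1 in R 4.3.3 fitted 1 coefficient per time to 8 arrays (4 residual and 6.89 prior degrees of freedom, intensity trend) with two-sided tests and Benjamini-Hochberg adjustment over 5188 genes. The fit was tested on simulated data. Differences between paired genes used an exact permutation test. All 9 members are named. Of the 4 other lists, the genes named are those called and the 2 with the smallest F test p in each. For the 3 members with the widest span of group means, the 2 most alike genes are named. RIM15, GLK1, TPS2, TSL1 and GAD1 were named outside this rule, after their values were seen. Members and lists were chosen with earlier results of these data known. Shared replicate numbers were not used to pair the samples. Deviations of same-numbered arrays correlated from -0.09 to 0.29 over pairs of times, and from 0.18 to 0.29 among 3, 7 and 14 days. At 3, 7 and 14 days the array sets followed the replicate numbers, so the replicate number and the array set cannot be told apart there. 1 gene of the pathway is not reported here.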

Additional observations from a re-analysis of the deposited data

How the results depend on the processing

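Of the counts of called members, those at 3 days against 0 days and at 14 days against 7 days were 0 in every alternative run, as in the analysis reported. Without normalisation, the median of all genes at 14 days against 0 days moved to 0.59 on the log2 scale from 0.11. Limma then called 5 members at 7 days against 0 days, 1 at 14 days against 0 days and 3 at 7 days against 3 days. For the slope, limma called 4 members without normalisation. Slope calls over all genes were then 876, beside 436 as reported. The share of slope calls above 0 among all genes was then 92.4%, and with equal array medians 67.8%, beside 55.3% as reported; at 14 days against 3 days it was 75.6% without normalisation, beside 55.9%. The members called at 7 days against 3 days also changed with equal array medians, array weights or the array set as a block. Those in the F test changed with equal array medians or the array set as a block. At 14 days against 3 days 0 members were called without the filter or without the intensity trend, beside 152 and 18 calls over all genes. For the slope 0 members were called without the floor, without the filter, with the mean of all probe sets, without the trend or with array weights. Slope calls over all genes were then 417, 306, 406, 117 and 275, in that order. For the other comparisons, counts over all genes under these settings are not given, so the members called there are not counted. Except at 3 days against 0 days and at 14 days against 7 days, the members called also changed over the fits that left out 1 array. Each of those fits left a time with 1 array.

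Slope differences over the same fits ran from -0.027 to 0.16 per day for TPK2 minus TPK3, from -0.019 to 0.063 for RAS2 minus RAS1, from -0.083 to -0.049 for PDE2 minus PDE1 and from -0.053 to 0.071 for MSN4 minus MSN2. As a mean log2 difference of 7 and 14 days against 0 and 3 days, MSN4 minus MSN2 was -0.0052. Replicate numbers were not used to pair the samples in the analysis reported. With the replicate block the members called were unchanged in number, 1 at 14 days against 3 days and 1 for the slope and 0 in the others, and MSN2 had limma adjusted p of 0.0320 and 0.0401. Calls over all genes with the block were 707 for the slope, beside 436, and 430 at 14 days against 3 days, beside 238. Permuted within replicate numbers, the slope differences had exact permutation p adjusted from 0.465 to 0.658.

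Signs turned only for members that were not called. Over the fits that left out 1 array, log2 differences at 3, 7 and 14 days against 0 days ran for TPK3 from -0.56 to 1.93, -0.50 to 1.99 and -0.54 to 1.94, and for MSN4 from -1.82 to 2.58, -0.58 to 3.85 and -0.059 to 4.38. At 14 days against 0 days BCY1 ran from -0.30 to 0.63 and RAS1 from -0.22 to 0.58, and at 7 days against 0 days PDE2 ran from -0.17 to 0.074. At 7 days against 3 days TPK3 ran from -0.25 to 0.36, RAS2 from -0.25 to 0.019 and PDE1 from -0.0094 to 0.63. At 14 days against 3 days TPK3 ran from -0.29 to 0.32 and RAS2 from -0.40 to 0.12. Slopes ran from -0.029 to 0.11 for TPK3, -0.00040 to 0.067 for BCY1, -0.034 to 0.024 for RAS1 and -0.00098 to 0.050 for RAS2. Without normalisation, RAS1 and RAS2 had 0.33 and 0.54 at 7 days against 3 days, RAS2 0.11 at 14 days against 3 days, RAS1 a slope of 0.026, and PDE2 0.85 and 0.28 at 7 and 14 days against 0 days. With equal array medians, RAS2 had 0.036 at 7 days against 3 days and PDE2 0.17 at 7 days against 0 days. The cause was not tested. RAS1 and MSN4 lay below a filter at the median and gave no value there. With 2 arrays a time, only large differences could pass.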
